A study of Mus musculus with 2 samples.

Results

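The cells described here are CD4 T cells of the mouse small intestine lamina propria that carried Il10 transcripts and no Foxp3 transcript. A cell was a member when it had at least 1 UMI (a unique molecular identifier, 1 counted transcript) of a Cd3 chain, of Trac, of Il10 and of Cd4, Icos or Cd40lg. It also had to have 0 UMIs of Foxp3, Il17a, Il17f, Il22, Ifng, Cd8a, Cd8b1 and Trdc and under 15% of its UMIs on immunoglobulin genes. The members were thus chosen by measured transcripts. They numbered 241 of 25120 kept cells, a kept cell having 1000 or more UMIs, 500 or more detected genes and no more than 10% of UMIs from mitochondrial genes. They were 100 of 12594 cells in the library labelled F/F and 141 of 12526 cells in the library labelled CD4-Cre.

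Both libraries were 10x Genomics 3′ gene expression libraries of sorted EPCAM-, Ter119-, CD31-, CD45+ cells. The F/F library came from mice with floxed alleles of Aster-A (Gramd1a, a carrier of cholesterol from the plasma membrane to the endoplasmic reticulum), and the CD4-Cre library from littermates with the same floxed alleles and CD4-Cre, which is active from the thymocyte stage and so covers CD4 and CD8 T cells. All mice were females of 10 to 12 weeks, fasted for 16 h and given olive oil by gavage 2 h before the cells were taken, and 100000 cells from each of 3 mice were pooled into 1 library per genotype. With 1 pool per genotype there was no replicate, no test was made, genotype and library cannot be told apart, and the intervals given are exact 95% intervals that cover counting error only.

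IL-10 is an anti-inflammatory cytokine that limits the activation of macrophages and dendritic cells, and mice that lack it develop intestinal inflammation. In the gut it is made by Foxp3+ regulatory T cells and by conventional CD4 T cells, among them type 1 regulatory (Tr1) cells, which make IL-10 without Foxp3. The transcription factor Maf binds and activates Il10 in several T cell lineages, Icos is a costimulatory receptor of activated CD4 T cells, and Ikzf2 encodes Helios, a factor best known from regulatory T cells. The 4 marker genes lie on GRCm38 at chr1:131019845-131024974 (Il10, plus strand), chr8:115682942-115707794 (Maf, minus strand), chr1:60977927-61000320 (Icos, plus strand) and chr6:124864692-124888221 (Cd4, minus strand).

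The promoters are shown of 4 genes that were each higher in both libraries in the members than in CD4 T cells without cytokine or Foxp3. Whether the 4 genes go together in the same cells was not tested. Capg (an actin filament capping protein), Itgav (the integrin alpha V chain, a partner in receptors that activate TGF-beta), Frmd5 (a FERM domain protein) and Dst (a cytoskeletal linker) are given as the 250 bases before a RefSeq start on GRCm38.p6, 5′ to 3′ on the gene's strand. The windows are chr6:72549397-72549646 (Capg, plus), chr2:83724147-83724396 (Itgav, plus), chr2:121807058-121807307 (Frmd5, minus) and chr1:34160010-34160259 (Dst, plus, 1 of 2 starts). Capitals mark a CCAAT box (CCAAT), a GC box (GGGCGG), a MAF half-site (TGCTGA), an AP-1 site (TGANTCA) or a RUNX site (TGTGGT) on either strand.
Capg: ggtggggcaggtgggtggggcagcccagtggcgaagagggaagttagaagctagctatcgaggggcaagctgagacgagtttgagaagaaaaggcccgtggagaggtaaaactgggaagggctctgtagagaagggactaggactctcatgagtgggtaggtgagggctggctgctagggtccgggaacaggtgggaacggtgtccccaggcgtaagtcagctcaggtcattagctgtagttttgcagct
Itgav: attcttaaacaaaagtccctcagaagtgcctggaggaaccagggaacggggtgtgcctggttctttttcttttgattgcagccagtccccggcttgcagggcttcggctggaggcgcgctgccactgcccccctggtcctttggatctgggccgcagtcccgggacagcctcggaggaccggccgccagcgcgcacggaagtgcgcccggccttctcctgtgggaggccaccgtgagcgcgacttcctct
Frmd5: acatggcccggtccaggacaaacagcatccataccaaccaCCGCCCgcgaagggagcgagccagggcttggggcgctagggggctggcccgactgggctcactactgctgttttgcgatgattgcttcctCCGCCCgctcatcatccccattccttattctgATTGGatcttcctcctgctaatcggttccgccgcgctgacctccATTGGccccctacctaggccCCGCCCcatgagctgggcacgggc
Dst: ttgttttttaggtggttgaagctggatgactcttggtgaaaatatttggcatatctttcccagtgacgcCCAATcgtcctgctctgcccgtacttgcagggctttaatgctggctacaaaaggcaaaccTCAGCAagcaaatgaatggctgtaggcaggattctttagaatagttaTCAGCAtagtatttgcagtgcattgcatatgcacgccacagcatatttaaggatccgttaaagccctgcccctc
The Frmd5 window held 2 CCAAT boxes and 3 GC boxes, the Dst window shown held 2 MAF half-sites and 1 CCAAT box while the window of the other Dst start (chr1:34011345-34011594) held 4 GC boxes and 0 MAF half-sites, and the Capg and Itgav windows held none of the 5 motifs. Over 32851 mouse promoter windows of this length, the MAF half-site was in 16.1%, the AP-1 site in 6.75%, the RUNX site in 14.0%, the CCAAT box in 33.8% and the GC box in 32.7%. Of the 12 genes named as higher against the cells without cytokine or Foxp3, 8 had a RefSeq promoter entry, and none of their windows but the Dst one shown held a MAF half-site.

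Members made up 0.794% (0.647 to 0.965) of kept cells in F/F and 1.13% (0.948 to 1.33) in CD4-Cre. As a share of CD4 T cells by the same T cell criteria (748 and 1243 cells), they were 13.4% (11 to 16.0) and 11.3% (9.63 to 13.2). The share of all cells was thus higher in CD4-Cre and the share of CD4 T cells lower. The intervals of the 2 libraries overlapped for both shares. After thinning to equal depth, members were 0.434% (0.326 to 0.566) of all cells in F/F and 0.816% (0.665 to 0.991) in CD4-Cre. Those intervals did not overlap, while those of the shares of CD4 T cells did, at 15.4% (11.8 to 19.6) and 13.7% (11.3 to 16.4). Among cells of at most 8000 UMIs, members were 2.72% (2.2 to 3.33) in F/F and 2.98% (2.5 to 3.53) in CD4-Cre, with intervals that overlapped. A Cd4 UMI could admit a member or another CD4 T cell. Icos without Cd4 was seen in 34.0% of F/F members and 4.26% of CD4-Cre members. What this did to the shares of CD4 T cells was not tested. CD4 T cells themselves were 5.94% of kept cells in F/F and 9.92% in CD4-Cre. Plasma cells (15% or more of UMIs on immunoglobulin genes and no Cd3 UMI) were 66.2% and 54.6% of kept cells.

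The other CD4 T cells were split by the same transcripts. Foxp3 cells numbered 163 in F/F and 212 in CD4-Cre, cells with a type 17 cytokine (Il17a, Il17f or Il22) 71 and 79, cells with Ifng 90 and 132, and cells without cytokine or Foxp3 324 and 679. Of all CD4 T cells with an Il10 UMI (223 and 298), members were 44.8% and 47.3%, Foxp3 cells 41.3% and 40.3%, type 17 cells 10.8% and 8.05%, and Ifng cells 3.14% and 4.36%. Members and Foxp3 cells thus held most of the Il10+ CD4 T cells in both libraries.

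Depth set part of the membership. Members had a median of 3732.5 UMIs and 1553.5 genes per cell in F/F and 3350 UMIs and 1481 genes in CD4-Cre. Foxp3 cells had medians of 4135 and 3931.5 UMIs, and the cells without cytokine or Foxp3 had 3515 and 3325. A single Foxp3 UMI marked 50.3% of the Foxp3 cells in F/F and 55.7% in CD4-Cre. After thinning each cell to 1500 UMIs, 53.3% and 49.2% of the cells with both Foxp3 and Il10 kept a Foxp3 UMI. A Foxp3+ cell whose Foxp3 transcripts were not sampled therefore counts as a member here, and how many members are such cells was not measured.

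Il10 chose the members, so its level is a description. Levels are given as CPM, the UMIs of a gene per 1000000 UMIs summed over the cells of a class. Il10 was at 669 CPM in the F/F members and 793 CPM in the CD4-Cre members. Foxp3 cells with an Il10 UMI stood at 809 and 1055 CPM. Over all cells of a class, with or without an Il10 UMI, Foxp3 cells stood at 452 and 567 CPM. On that same basis type 17 cells stood at 348 and 177 CPM, and Ifng cells at 46.1 and 69.1. Members just inside the threshold, with 1 Il10 UMI, were 33 of 100 cells in F/F and 49 of 141 in CD4-Cre; 32 and 45 had 2 to 3 UMIs, and 35 and 47 had 4 or more, up to 11 and 15. Cells just outside it had 0. The spread over cells was alike in both libraries, with a median of 2 Il10 UMIs in each.

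CD8 T cells, which had a depth close to that of the members (medians of 4454 and 4211.5 UMIs), served as the background for Il10 in T cells. An Il10 UMI was seen in 1.27% (0.032 to 6.85) of CD8 T cells in F/F and in 1.79% (0.489 to 4.51) in CD4-Cre. Among Foxp3 cells the share was 56.4% and 56.6%, among type 17 cells 33.8% and 30.4%, and among Ifng cells 7.78% and 9.85%. The Foxp3 and type 17 classes lay far above the CD8 background in both libraries, and the interval of the Ifng cells overlapped it in F/F (3.18 to 15.4) and not in CD4-Cre (5.35 to 16.3). Plasma cells, at medians of 17379 and 17277 UMIs, had an Il10 UMI in 12.3% and 9.89% of cells at 8.97 and 7.16 CPM. B cells (Ms4a1 and Cd79a without Cd3), at medians of 20648 and 20084.5 UMIs, had one in 19.1% and 13.1% of cells at 11.8 and 7.7 CPM. Dendritic cells with Xcr1 and without Cd3, at medians of 16706 and 15342 UMIs, had one in 2.99% and 2.25%.

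**Figure D1:**
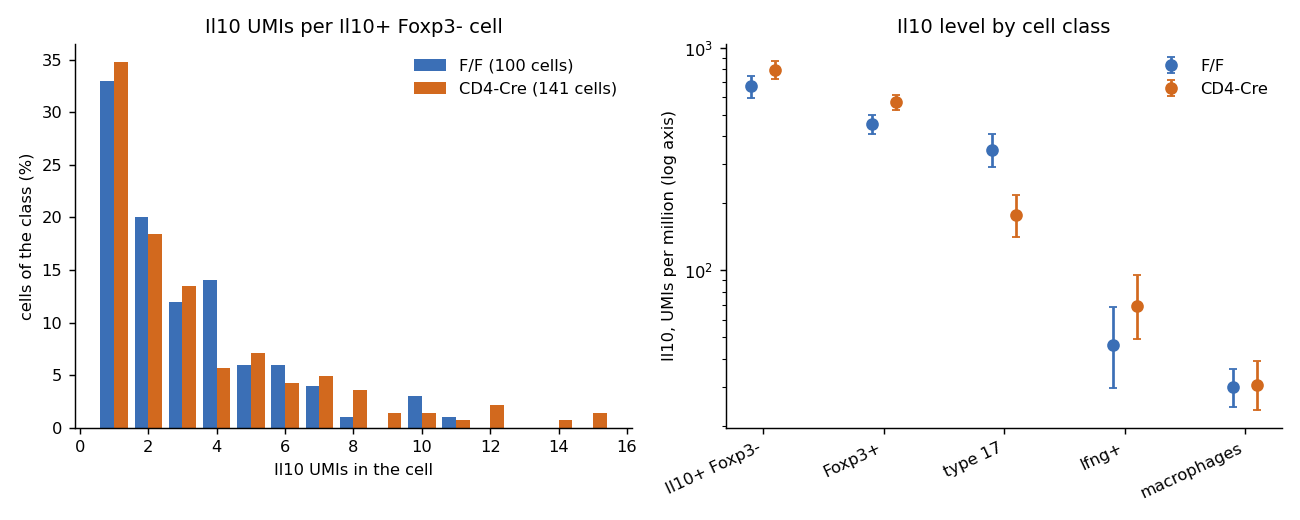
Left, the percent of Il10+ Foxp3- cells (y axis) with each number of Il10 UMIs (x axis) in each library; right, Il10 in CPM on a log axis by cell class, points with exact 95% counting intervals. The tallest bars sit at 1 UMI (33 of 100 and 49 of 141 cells), and members (669 in F/F, 793 in CD4-Cre) lie above the other 4 classes shown. Every member has an Il10 UMI by rule, while the other classes include cells without one. Members and classes were split by Il10, Foxp3 and cytokine transcripts, so this is a description.

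Of the markers fixed for the class, Maf was measured outside the rule. Maf was at 823 CPM (87 of 100 cells) in F/F and 700 CPM (119 of 141 cells) in CD4-Cre. The cells without cytokine or Foxp3 had 304 and 280 CPM, which gave log2 ratios of 1.43 (1.23 to 1.64) and 1.32 (1.15 to 1.5). Against Foxp3 cells (616 and 662 CPM) the log2 ratios of Maf were 0.42 (0.22 to 0.61) and 0.08 (-0.09 to 0.25). Maf was therefore well above the cytokine-negative cells in both libraries, and near the level of the Foxp3 cells. All 4 markers (Il10, Maf, Icos and Cd4) were seen together in 48.0% of members in F/F and 68.1% in CD4-Cre.

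Icos, which could admit a cell to the class, was at 734 and 663 CPM in the members and at 371 and 398 CPM in the cells without cytokine or Foxp3. Cd4, also in the rule, was seen in 66 of 100 members in F/F and 135 of 141 in CD4-Cre, at 293 and 1129 CPM. The library difference in Cd4 was not particular to the members: the log2 ratio of CD4-Cre over F/F was 1.95 (1.68 to 2.22) in members, 2.06 (1.84 to 2.29) in Foxp3 cells and 2.01 (1.84 to 2.18) in the cells without cytokine or Foxp3. In F/F, 34 members entered by Icos without a Cd4 UMI, and in CD4-Cre 6 did. Without the need for Cd4, Icos or Cd40lg the class had 110 and 148 cells. The T helper factor Zbtb7b was low, at 19.5 and 27.3 CPM.

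The members resembled Foxp3 cells in genes of regulatory T cells that were no part of the rule. Ctla4, an inhibitory receptor of regulatory T cells, stood at 1129 CPM (94 cells) in F/F and 1237 CPM (131 cells) in CD4-Cre. Its levels in Foxp3 cells were 1201 and 1184 CPM, and in the cells without cytokine or Foxp3 463 and 511 CPM. Ikzf2 (Helios) was at 784 and 967 CPM in members, 1072 and 1239 CPM in Foxp3 cells and 287 and 375 CPM in the cells without cytokine or Foxp3. An Ikzf2 UMI was seen in 68.0% (57.9 to 77.0) and 72.3% (64.2 to 79.5) of members. For both genes the members sat at or just under the Foxp3 cells and far above the cytokine-negative cells, and type 17 cells had little Ikzf2 (124 and 86.2 CPM).

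**Figure D2:**
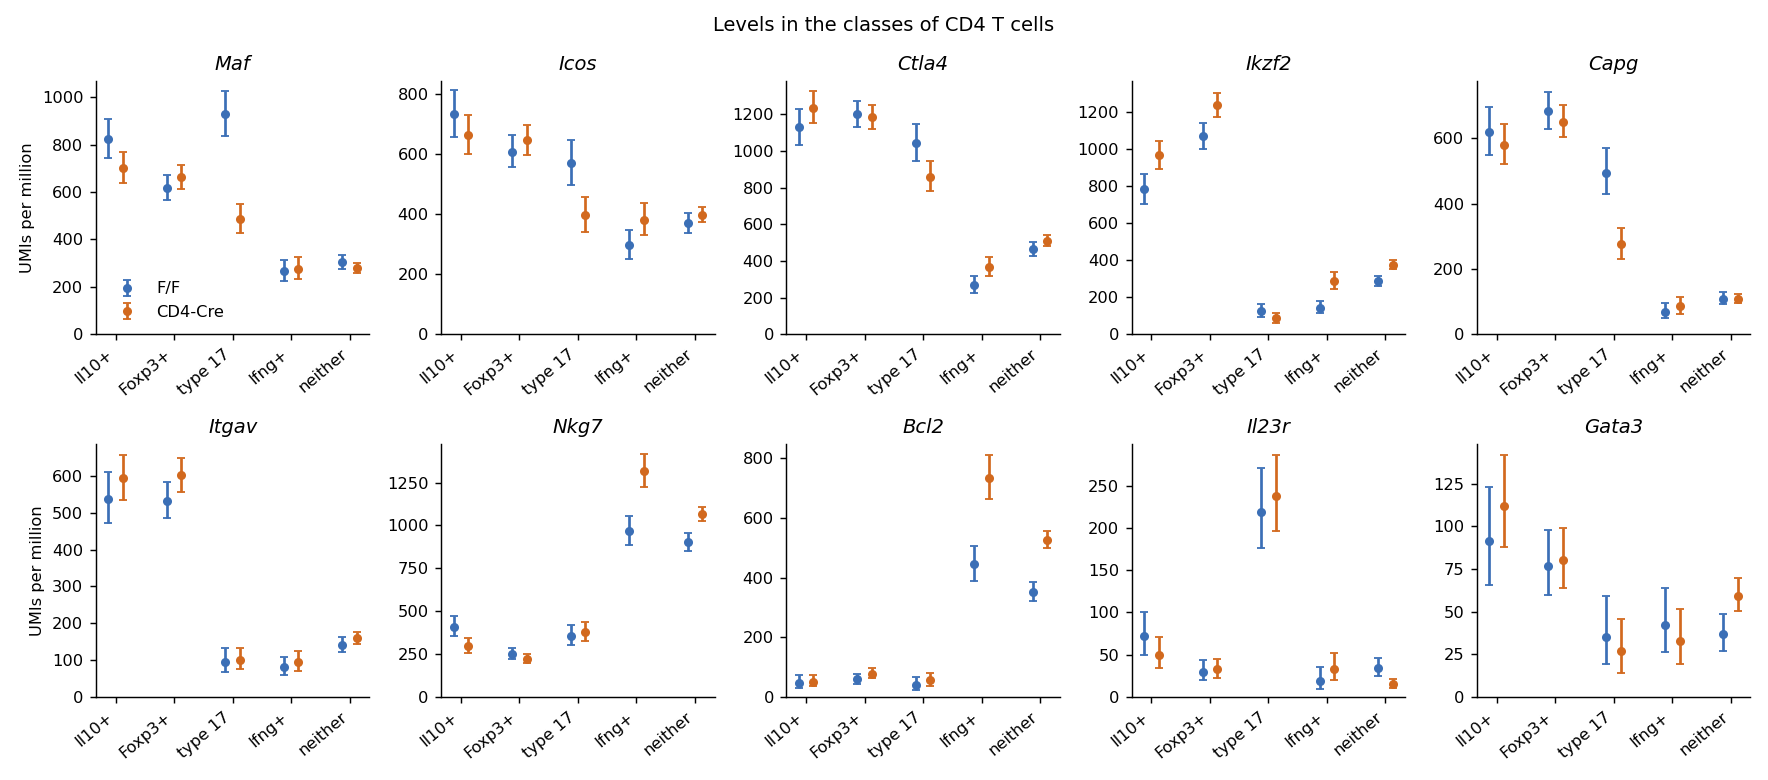
Levels in CPM (y axes from 0) of 10 genes, of which Icos was in the rule, in the 5 classes of CD4 T cells (Il10+ stands for the members, neither for the cells without cytokine or Foxp3), with a point for each library and bars for exact 95% counting intervals. The members' Ctla4 (1129 and 1237) lies beside that of the Foxp3 cells (1201 and 1184) and above that of the cells without cytokine or Foxp3 (463 and 511).

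Against the cells without cytokine or Foxp3, the members had more transcripts of regulatory T cell genes and fewer of innate-like T cell genes, by the list counts given after the named genes. Among 4030 genes with at least 60 UMIs over both classes in each library, 173 (4.29%) were at least 1.5-fold higher in both libraries and 184 (4.57%) at least 1.5-fold lower. These calls are folds without a test. The genes named are the first 12 in each direction by the interval bound nearest to 0.

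Frmd5 led the higher genes. The F/F members had 558 CPM and the CD4-Cre members 999 CPM against 35.9 and 76.2 CPM, log2 ratios of 3.96 (3.51 to 4.43) and 3.71 (3.48 to 3.95). These UMIs came from few cells, 19 of 100 and 41 of 141 members, and 1 CD4-Cre cell held 111 of the 622. Foxp3 cells had 390 and 615 CPM in 43 and 65 cells. Frmd5 was thus a gene of a minority of cells in both Il10-rich classes.

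Capg was seen in 75 of 100 and 113 of 141 members. Its levels were 619 and 580 CPM against 108 and 109 CPM, log2 ratios of 2.51 (2.22 to 2.81) and 2.41 (2.18 to 2.64). Itgav stood at 538 and 594 CPM against 141 and 160 CPM, log2 ratios of 1.93 (1.65 to 2.21) and 1.89 (1.69 to 2.10). Both genes gave nearly the same values in the 2 libraries, and both lay at the level of the Foxp3 cells (683 and 651 CPM for Capg, 532 and 602 for Itgav). After thinning to 1500 UMIs, a Capg UMI remained in 55.0% and 57.9% of members and in 7.12% and 11.1% of the cells without cytokine or Foxp3.

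The other 9 higher genes were Neb, Nckap5, Arl5a, Dst, Gm45716, Mmp9, Fam169b, Setbp1 and Sdc4. Neb, the gene of the muscle protein nebulin, was at 217 and 239 CPM against 17.2 and 33.5 CPM. Mmp9, a secreted matrix protease, was at 93.3 and 70.7 CPM against 18.7 and 16.9 CPM, and at 49.3 and 39.1 CPM in Foxp3 cells. Sdc4, a heparan sulfate proteoglycan, was at 91.2 and 112 CPM against 22.4 and 18.1 CPM. Of the 12 genes, Mmp9 and Setbp1 had intervals above 0 against the Foxp3 cells in both libraries besides Frmd5. The log2 ratios of Mmp9 there were 0.92 (0.28 to 1.56) and 0.86 (0.21 to 1.5), and those of Setbp1 0.71 (0.27 to 1.15) and 0.56 (0.17 to 0.94).

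The lower genes were Zbtb16, Bcl2, Xcl1, Cd160, Mctp2, Themis, Fasl, Cd7, Gcnt2, Gm16093, Tcf7 and Atp8a2. Zbtb16 (PLZF), the factor of innate-like T cells, had 2 UMIs in F/F members and 1 in CD4-Cre members, 4.34 and 1.61 CPM, against 105 and 146 CPM. Bcl2, which protects from apoptosis, was at 47.8 and 51.4 CPM against 352 and 528 CPM, log2 ratios of -2.88 (-3.57 to -2.27) and -3.36 (-3.92 to -2.86). Themis, a T cell receptor signalling protein, was at 82.5 and 108 CPM against 429 and 458 CPM. Tcf7, a factor of naive and memory T cells, was at 15.2 and 12.8 CPM against 96.5 and 96.6 CPM. Foxp3 cells shared these low levels, with Bcl2 at 59.6 and 78.1 CPM and Tcf7 at 4.59 and 10.2 CPM.

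The comparison class was itself mixed. A UMI of Tcrg-C1, Tcrg-C2 or Tcrg-C4, constant genes of the gamma chain, was seen in 20.4% and 21.2% of the cells without cytokine or Foxp3 and in 7.0% and 3.55% of members. Nkg7, a granule gene of cytotoxic cells, was at 904 and 1067 CPM there and at 410 and 296 CPM in members. The part of such cells in the differences was not tested.

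**Figure D3:**
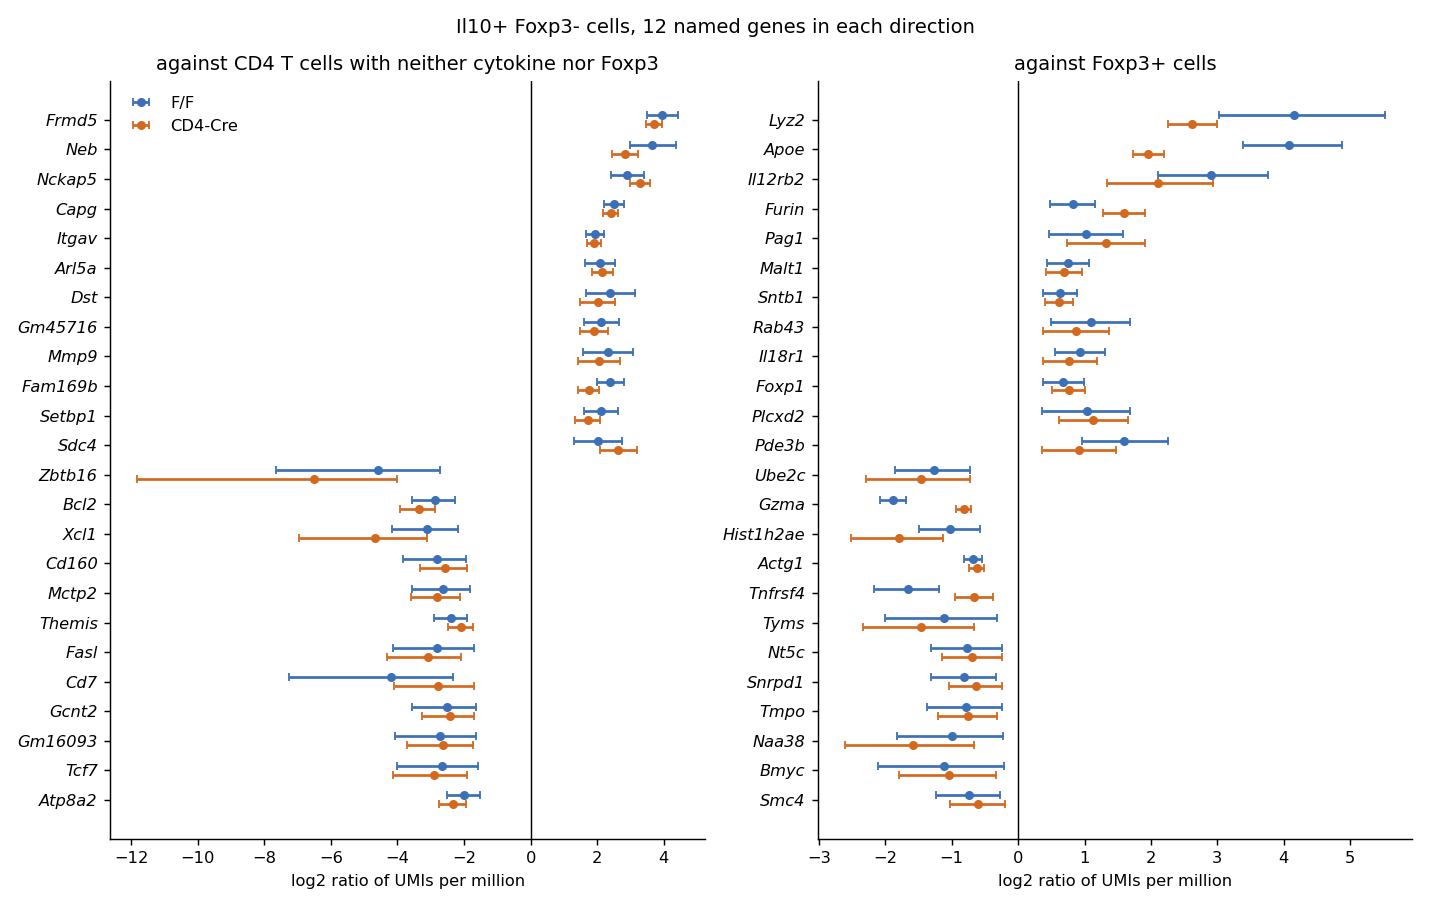
Log2 ratios (x axes) of the 12 named genes in each direction for the members against Foxp3 cells and against cells without cytokine or Foxp3, 1 point per library with exact 95% counting intervals and a line at 0. The points of the 2 libraries lie close together for Capg (2.51 and 2.41) and apart for Gzma against Foxp3 cells (-1.88 and -0.82).

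Gene lists described the same contrast. Members of a list needed 20 UMIs, and over the 7237 genes that met this the medians were 0.03 in F/F and 0.02 in CD4-Cre, with 5.44% past 1.5-fold higher in both libraries and 4.52% lower. Of 16 measured regulatory T cell genes, 13 were past 1.5-fold higher and 0 lower, with medians of 1.22 and 1.70. Of 18 checkpoint and costimulatory receptors, 11 were higher and 3 lower (medians 0.72 and 0.89). Of 13 innate-like T cell genes, 9 were lower and 0 higher (medians -2.74 and -2.67). Of 17 type 1 genes, 9 were lower and 2 higher (medians -1.14 and -1.09). The 2 higher ones were Ccr2, a chemokine receptor (213 and 159 CPM against 61.3 and 58.5), and Gzmb, the gene of granzyme B (923 and 623 CPM against 344 and 330).

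Among 21 measured regulators of Il10 and Tr1 genes, 8 were higher and 2 lower than in the cells without cytokine or Foxp3, with medians of 0.83 and 0.58. Lag3, an inhibitory receptor used to mark Tr1 cells, was at 52.1 and 53.0 CPM against 16.5 and 8.09 CPM. Nt5e (CD73, which makes adenosine) was at 185 and 239 CPM against 85.3 and 80.1 CPM. Cd226, which is paired with Lag3 and Itga2 in definitions of Tr1 cells, went the other way, at 139 and 99.6 CPM against 275 and 305 CPM. Itga2 (CD49b) was at 39.1 and 53.0 CPM, with intervals that included 0 in both libraries, and Eomes, a factor of some Tr1 cells, had 0 UMIs. Pdcd1 had 3 and 5 UMIs in all members. Prdm1, which encodes Blimp-1, was at 67.3 and 49.8 CPM against 38.1 and 45.4 CPM, and its log2 ratio differed by library, 0.82 (0.13 to 1.49) and 0.13 (-0.49 to 0.71).

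Genes that act upstream or downstream of IL-10 were measured beside these. Il27ra, the receptor of IL-27, a cytokine that induces Il10, was at 54.3 and 40.2 CPM against 50.9 and 44.3 CPM. Ahr, a ligand-activated factor that works with Maf, was at 73.8 and 75.5 CPM against 68.1 and 52.4 CPM. Il10ra, the ligand-binding IL-10 receptor chain, was at 19.5 and 33.7 CPM against 6.73 and 6.55 CPM. Tgfb1 was at 145 and 204 CPM against 110 and 102 CPM. Of 15 cytokine receptor genes of this axis, 3 were past 1.5-fold higher and 2 lower.

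Against the Foxp3 cells, few genes differed. Of 3182 genes, 37 (1.16%) were at least 1.5-fold higher in the members in both libraries and 25 (0.786%) lower. The list of 20 IL-10 and Tr1 genes had none past the fold either way, with medians of 0.05 and 0.07, beside medians of 0.04 and -0.01 over 6266 genes, of which 2.36% were past 1.5-fold higher and 2.01% lower. Of 19 regulatory T cell genes, 2 (Ccr8 and Tnfrsf4) were past 1.5-fold lower, none was past it higher, and 14 were lower by any amount in both libraries (27.5% of the 6266 genes were), with medians of -0.42 and -0.17. Restricted to Foxp3 cells that also had Il10, 13 of 2392 genes (0.543%) were higher in the members and 6 (0.251%) lower.

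Il12rb2, Furin and Il18r1 were among the higher genes. Of 12 type 1 genes measured against Foxp3 cells, 2 were past 1.5-fold higher and 1 lower, with medians of 0.54 and 0.16. Il12rb2, the signalling chain of the IL-12 receptor, was at 145 CPM (18 cells) and 80.3 CPM (16 cells) against 19.5 and 18.6 CPM. Its log2 ratios were 2.90 (2.11 to 3.76) and 2.11 (1.34 to 2.94), and the cells without cytokine or Foxp3 had 134 and 168 CPM. Furin, a proprotein convertase, was at 319 and 355 CPM against 181 and 118 CPM, log2 ratios of 0.82 (0.48 to 1.15) and 1.59 (1.27 to 1.91). Il18r1, the IL-18 receptor, was at 267 and 169 CPM against 140 and 98.6 CPM, log2 ratios of 0.93 (0.56 to 1.31) and 0.77 (0.37 to 1.18). All 3 were higher in both libraries.

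Of 10 type 17 genes, 4 (Furin, Il23r and Ltb4r1 among them) were past 1.5-fold higher and none lower than in Foxp3 cells, with medians of 0.78 and 0.61. Il23r, the receptor that sustains these cells, was at 71.6 and 49.8 CPM against 29.8 and 32.5 CPM. In type 17 cells Il23r was far higher, at 219 and 238 CPM. Members had no Il17a, Il17f or Il22 UMI by rule.

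The remaining higher genes were Pag1, Malt1, Sntb1, Rab43, Foxp1, Plcxd2, Pde3b, Lyz2 and Apoe. Pde3b, a phosphodiesterase, was at 122 and 96.4 CPM against 40.1 and 51.1 CPM in Foxp3 cells and 363 and 425 CPM in the cells without cytokine or Foxp3. Malt1, a protease of antigen receptor signalling, was at 334 and 357 CPM against 198 and 221 CPM. The macrophage genes Lyz2 and Apoe came from a few cells: the 5 highest members held 100% and 97.9% of the Lyz2 UMIs and 95% and 94.6% of the Apoe UMIs. Without cells that had 3 or more UMIs of 9 macrophage markers (3 and 7 members), the F/F log2 ratio of Lyz2 went from 4.16 to -0.18. Rab43 in CD4-Cre, at 0.87, was 0.11 among cells of at most 8000 UMIs.

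The genes lower than in Foxp3 cells were Gzma, Actg1, Tnfrsf4 and 9 others, Ube2c, Hist1h2ae, Tyms, Nt5c, Snrpd1, Tmpo, Naa38, Bmyc and Smc4, of which several serve DNA replication or mitosis. Gzma, the gene of granzyme A, was at 545 CPM (21 cells) and 1346 CPM (53 cells) against 2003 and 2378 CPM. Its log2 ratios were -1.88 (-2.08 to -1.69) and -0.82 (-0.94 to -0.71), and 5 cells held 64.5% and 59.7% of the members' UMIs. Actg1, a cytoskeletal actin, was at 1335 and 1344 CPM against 2135 and 2070 CPM. Tnfrsf4 (OX40), a costimulatory receptor of regulatory T cells, was at 91.2 and 230 CPM against 289 and 364 CPM, log2 ratios of -1.66 (-2.17 to -1.19) and -0.66 (-0.95 to -0.38).

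Of 17 proliferation genes, 5 were past 1.5-fold lower than in Foxp3 cells and none higher, with medians of -0.42 and -0.66. Mki67, a marker of cycling cells, was seen in 14 and 10 members. Among cells of at most 8000 UMIs these genes did not move alike. The log2 ratio of Hist1h2ae went from -1.02 to 0.06 in F/F and from -1.79 to -3.85 in CD4-Cre, and that of Tyms from -1.12 to -0.02 and from -1.46 to 0.35. That of Ube2c went from -1.27 to -0.10 in F/F and stayed near its value in CD4-Cre (-1.47 and -1.55), and that of Smc4 was -0.70 and -0.48 beside -0.74 and -0.61 over all cells.

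The members were not uniform. Gata3, the type 2 factor that also serves tissue regulatory T cells, was seen in 20 of 100 and 38 of 141 members, Bcl6, the follicular helper factor, in 7 and 21, and Tbx21, the type 1 factor, in 3 and 3. An Ikzf2 UMI was seen in 15 of the 20 F/F cells with Gata3 and in 35 of the 38 CD4-Cre cells. Over all members Ikzf2 was seen in 68.0% and 72.3%, and whether the 2 genes go together was not tested.

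Splitting the members by an Ikzf2 UMI gave 68 cells with and 32 without in F/F, and 102 and 39 in CD4-Cre. Median depths were 3731 and 3742 UMIs in F/F, and 3431 and 3080 in CD4-Cre. Il10 itself was at 614 CPM with and 791 CPM without Ikzf2 in F/F, and 786 and 819 CPM in CD4-Cre. Klrg1, a receptor of effector and tissue regulatory T cells, was at 85.0 CPM with Ikzf2 and had no UMI in the 32 cells without it in F/F, which allows up to 25.8 CPM by the exact interval. In CD4-Cre it was at 199 (161 to 243) and 41.6 (15.3 to 90.6) CPM. Areg, the tissue repair factor amphiregulin, was at 142 (103 to 189) CPM with and 56.0 (24.2 to 110) CPM without Ikzf2 among F/F members, and at 228 and 69.4 CPM among CD4-Cre members. Cells without Ikzf2 had more Il23r, with 147 against 37.8 CPM among F/F members and 104 against 33.4 CPM among CD4-Cre members. They also had more Furin, with 469 against 252 CPM among F/F members and 534 against 301 CPM among CD4-Cre members. Nkg7 followed the same order (553 against 346 CPM, and 562 against 215 CPM). The granzyme genes did not: Gzma was at 385 CPM without and 617 CPM with Ikzf2 in F/F and at 2636 and 957 CPM in CD4-Cre, and Gzmb at 546 and 1092 CPM in F/F and 756 and 583 CPM in CD4-Cre. By share of cells, Gzma in CD4-Cre was seen in 28.2% without and 41.2% with Ikzf2. Ccl5, a chemokine of cytotoxic cells, was higher without Ikzf2 in F/F (2387 against 324 CPM). It was seen there in 12 of 32 cells without and 22 of 68 with Ikzf2, and 5 members held 62.2% of its UMIs. In CD4-Cre the intervals of Ccl5 overlapped (541 against 481 CPM).

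The number of Il10 UMIs in a member was set against other genes. Median depth was 3707, 3657.5 and 3806 UMIs in F/F for members with 1, 2 to 3 and 4 or more Il10 UMIs, and 3223, 3397 and 3455 in CD4-Cre. Maf was at 510, 805 and 1200 CPM in the F/F members and at 423, 790 and 976 CPM in the CD4-Cre members over the 3 bins. Ctla4 was at 753, 1107 and 1582 CPM in the F/F members and at 946, 1225 and 1627 CPM in the CD4-Cre members. Both genes were higher in each successive bin in both libraries. Ccr2 was lowest in the 1-UMI bin in both, at 77.1, 227 and 354 CPM in F/F and 60.4, 245 and 205 CPM in CD4-Cre.

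The CPM of Frmd5, Areg and Il12rb2 was also higher in each successive bin, but from few cells. Frmd5 was at 474, 550 and 661 CPM in F/F and 435, 909 and 1821 CPM in CD4-Cre, Areg at 71.2, 96.3 and 184 CPM and at 92.6, 207 and 304 CPM, and Il12rb2 at 41.5, 131 and 280 CPM and at 56.4, 81.7 and 110 CPM. The share of members with Frmd5 fell over the bins in F/F (24.2%, 18.8% and 14.3%) and rose in CD4-Cre (22.4%, 28.9% and 36.2%). That with Areg had no order (18.2%, 15.6% and 25.7%, and 12.2%, 35.6% and 27.7%). Il12rb2 was seen in 4, 8 and 6 and in 6, 3 and 7 cells. The lowest and highest bins overlapped in F/F for Frmd5 (376 to 590 and 536 to 807) and Areg (36.8 to 124 and 121 to 268). In CD4-Cre they did for Il12rb2 (30.8 to 94.6 and 68.2 to 168). Cxcr6 and Rora were higher in each successive bin, which in CD4-Cre did not hold without the largest cell.

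Icos, Capg and Ccl5 had no order common to both libraries. Icos was at 445, 681 and 1118 CPM in the F/F members and 487, 806 and 756 CPM in the CD4-Cre members. Capg was at 563, 612 and 689 CPM in the F/F members and 519, 773 and 472 CPM in the CD4-Cre members. Ccl5 was lower in each successive bin in F/F (2117, 392 and 205 CPM) and not in CD4-Cre (415, 430 and 661 CPM). The member with most UMIs in each library (22685 in F/F, 58471 in CD4-Cre, 9.39% of that class) fell in the 1-UMI bin. Without these cells Maf in that bin was at 562 and 553 CPM and Ctla4 at 843 and 1174 CPM, and the order of the bins held for both genes. The intervals of the lower 2 bins then overlapped for Maf (447 to 697 and 666 to 965 in F/F, 452 to 669 and 666 to 929 in CD4-Cre) and for Ctla4 (700 to 1005 and 943 to 1292 in F/F, 1025 to 1339 and 1070 to 1396 in CD4-Cre). The upper 2 bins of Maf overlapped in CD4-Cre (666 to 929 and 841 to 1127). In both libraries the lowest and the highest bin did not overlap for either gene.

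**Figure D4:**
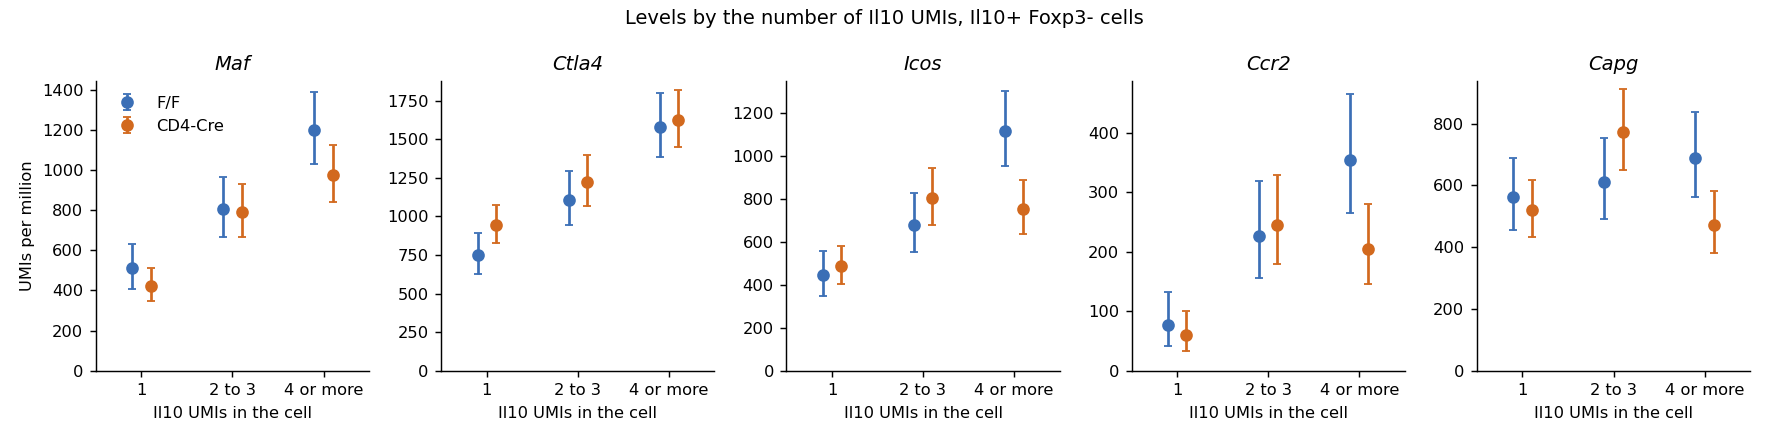
Levels in CPM (y axes from 0) by the number of Il10 UMIs in the cell (x axes, 3 bins), members only, with exact 95% counting intervals for each library. Maf goes from 510 to 1200 in F/F and from 423 to 976 in CD4-Cre.

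Between the libraries, a difference in the members' Gramd1a level was not detectable at this depth. Gramd1a (chr7:31130127-31155896, minus strand, on GRCm38) was at 32.6 CPM (15 of 100 cells) in F/F and 32.1 CPM (18 of 141 cells) in CD4-Cre, a log2 ratio of -0.02 (-1.06 to 1.05). When members needed 2 Il10 UMIs it was -0.94 (-2.44 to 0.47). It was -0.35 (-1.12 to 0.42) in Foxp3 cells and -0.53 (-0.92 to -0.14) in the cells without cytokine or Foxp3. The labels do not say which part of the gene was floxed, so transcripts counted at the 3′ end may lie outside it and check nothing. The related Gramd1b was at 73.8 and 67.5 CPM and Gramd1c had 5 UMIs and 1 UMI. Of 18 measured genes of sterol transport and synthesis, 1 was past 1.5-fold higher and 2 lower in CD4-Cre, with a median log2 ratio of -0.09. Of all 5915 genes with at least 20 UMIs, 13.0% were past it higher and 7.78% lower, with a median of 0.04.

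Some of the regulatory T cell genes stood higher in the CD4-Cre members. Of 2835 genes with at least 60 UMIs over both libraries and 20 CPM in 1 of them, 204 (7.20%) were at least 1.5-fold higher in CD4-Cre and 119 (4.20%) lower, around a median of 0.04. Of 17 regulatory T cell genes with at least 20 UMIs, 8 were past 1.5-fold higher and none lower, beside 13.0% and 7.78% of 5915 genes. The list's median was 0.46 in members, 0.28 in Foxp3 cells and 0.11 in the cells without cytokine or Foxp3. The 8 were Areg, Cd83, Il1rl1, Itgb8, Klrg1, Rel, Tnfrsf4 and Tnfrsf9. Ctla4, Ikzf2, Il2ra and Capg, also on the list, were not past the fold, and Capg stood lower in CD4-Cre. Whether the classes differ in this was not tested.

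Klrg1 was at 58.6 CPM (15 cells) in F/F and 162 CPM (40 cells) in CD4-Cre, a log2 ratio of 1.47 (0.84 to 2.14), with 0.50 (0.15 to 0.85) in Foxp3 cells and -0.37 (-1.01 to 0.28) in the cells without cytokine or Foxp3. Tnfrsf4 was at 91.2 and 230 CPM, a log2 ratio of 1.33 (0.83 to 1.87), with 0.33 (0.10 to 0.57) in Foxp3 cells. Il1rl1 (ST2, the IL-33 receptor) had 15.2 and 61.0 CPM, but 15 of its 38 CD4-Cre UMIs came from 1 cell. Rel, an NF-kB subunit, was at 287 and 456 CPM, a log2 ratio of 0.67 (0.37 to 0.98). Areg was at 115 and 191 CPM, a log2 ratio of 0.73 (0.25 to 1.23).

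The other named genes higher in CD4-Cre members were Ky, Ppm1l, Fbxw7, Frmd5, Ppp6r3, Hivep1, Snx18, Mbnl1, Dgkh and Hdac8. Fbxw7, a ubiquitin ligase subunit, was at 28.2 and 83.5 CPM, a log2 ratio of 1.57 (0.67 to 2.57), with 0.01 (-0.55 to 0.59) in Foxp3 cells. Ppm1l, a protein phosphatase, was at 58.6 and 151 CPM, with log2 ratios of 1.37 (0.73 to 2.04) in members and 1.16 (0.62 to 1.74) in Foxp3 cells. Mbnl1, a splicing regulator, was at 1341 and 2171 CPM, a log2 ratio of 0.69 (0.56 to 0.83), and was as much higher in Foxp3 cells (0.73) and in the cells without cytokine or Foxp3 (0.85). Frmd5 too was higher in all 3 classes (0.84, 0.66 and 1.09).

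Several type 1 genes stood lower in the CD4-Cre members. Of 12 type 1 genes, 5 (Ccl5, Cxcr3, Il12rb2 and Il18r1 among them) were past 1.5-fold lower and 1 (Gzma) higher, beside 7.78% and 13.0% of 5915 genes. The list's median was -0.52 in members, -0.18 in Foxp3 cells and 0.06 in the cells without cytokine or Foxp3. Ccl5 was at 964 and 495 CPM, -0.96 (-1.18 to -0.75), but 0.88 when members needed 2 Il10 UMIs, and 5 cells held 62.2% of the F/F UMIs.

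Lgals1, the gene of galectin 1, was at 1029 and 469 CPM, a log2 ratio of -1.13 (-1.35 to -0.92), with -0.08 (-0.21 to 0.06) in Foxp3 cells. Crip1, a small LIM domain protein, was at 632 and 286 CPM, a log2 ratio of -1.14 (-1.42 to -0.87), with -0.06 (-0.26 to 0.14) in Foxp3 cells. Among cells of at most 8000 UMIs they were -0.50 (-0.78 to -0.23) and -0.26 (-0.63 to 0.12). Ifi27l2a, an interferon-induced gene, was at 938 and 496 CPM, -0.92 (-1.13 to -0.70), with -0.54 in both other classes. Rpl41 was -0.56 in members, -0.53 in Foxp3 cells and -0.50 in the cells without cytokine or Foxp3. Also named were 4930503L19Rik, Atp5j2, Atp5mpl, R3hdm1, Chordc1 and Cox6c, with log2 ratios from -0.70 to -1.09.

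**Figure D5:**
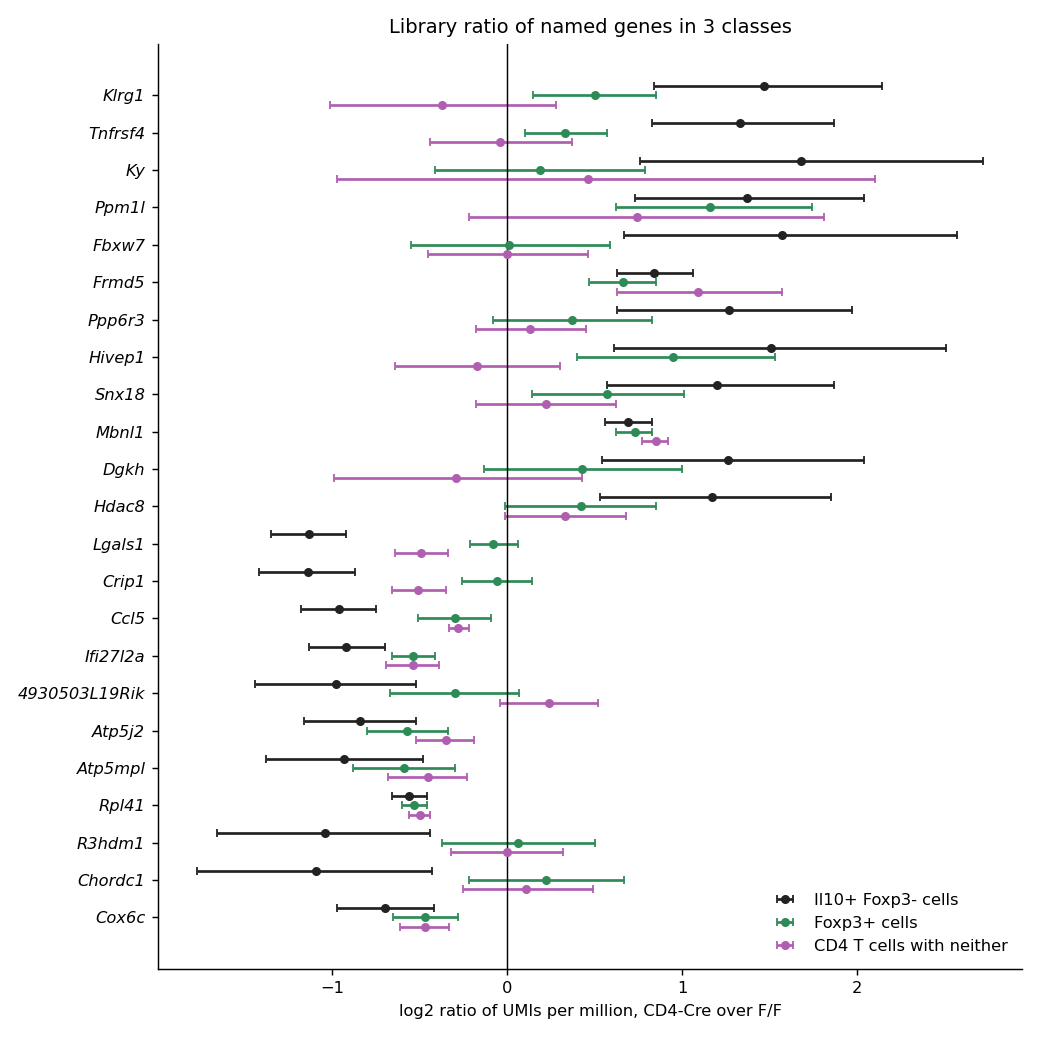
Log2 ratios of CD4-Cre over F/F (x axis) for the named genes in members, Foxp3 cells and cells without cytokine or Foxp3, with exact 95% counting intervals and a line at 0. Mbnl1 (0.69, 0.73 and 0.85) and Rpl41 (-0.56, -0.53 and -0.50) are alike in the 3 classes, while Klrg1 is 1.47 in members and -0.37 in cells without cytokine or Foxp3.

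RNA of other cells was present in the members. Summed macrophage markers were at 675 and 1465 CPM in members, 49.3 and 391 CPM in Foxp3 cells and 569 and 148 CPM in the cells without cytokine or Foxp3, and 19.0% and 28.4% of members had such a UMI, with all 9 markers seen. Plasma cell markers, all 9 seen, were at 38311 and 45914 CPM in members and at 35944 and 26774 CPM in Foxp3 cells. B cell markers were at 126 and 162 CPM, with Ms4a1, Pax5 and Ebf1 among those at 0 in F/F. Pancreatic acinar genes summed to 1365 CPM in F/F members and 112 CPM in CD4-Cre members, and they stood apart by library in the other classes too. Gastric mucous genes went the other way, at 45.6 CPM (19.0% of cells) in F/F members and 363 CPM (69.5%) in CD4-Cre members, with 33.3 and 296 CPM in Foxp3 cells and 31.4 and 407 CPM in the cells without cytokine or Foxp3. Haemoglobin genes were at 0. The part of these transcripts in the library ratios was not tested. The 2 libraries shared the barcodes of 47 kept cells, and 2 CD4-Cre members were among them.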

How the data were processed

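The authors deposited 1 unfiltered matrix of whole-number UMI counts per gene and barcode for each library (2307624 and 2270301 barcodes, 222838658 and 200580083 UMIs). The submitters' processing notes name Cell Ranger 7.2.0, Seurat 5.0.1 and the builds mm10 and GRCm38; the role of each is not given in the sources used here. Cells were kept at 1000 UMIs, 500 genes and 10% mitochondrial UMIs. No doublet caller was run and doublets were not removed. UMIs were summed per class and library, divided by the class total (460704 and 622620 for the members) and given as CPM. For a ratio, the interval is the exact binomial one for how a gene's UMIs divide between both sides; shares have Clopper-Pearson intervals. List ratios add 0.5 counts.

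Named genes had at least 60 UMIs and were the first 12 in each direction by the interval bound nearest to 0; class contrasts needed 1.5-fold the same way in both libraries, and the library ratio a bound of 0.2 (log2), 20 CPM and under 25% of the UMIs from 1 cell. Immunoglobulin, mitochondrial, T cell receptor variable genes and 103 genes of free RNA could not be named. Some genes that this rule or the lists hold are not reported here. The members and lists were chosen with earlier results of these data known. Counts for the 2835 genes of the library ratio were also simulated with counting error only, as the intervals assume. There 95.5% of intervals held the true value, and 38.0% of 1.5-fold and 76.0% of 2-fold changes were found. With no spread between cells or mice in the simulation, it cannot show how the intervals do on real counts. Gene positions are from GENCODE on GRCm38 and promoters from RefSeq on GRCm38.p6. Python 3.11.15, numpy 2.4.6, scipy 1.17.1, pandas 2.3.3 and matplotlib 3.10.9 were used.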

Additional observations from a re-analysis of the deposited data

Results flagged for a closer look

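In each pair below, the members and another class, or the 2 libraries, moved in opposite directions with counting intervals on opposite sides of 0. The pairs were picked by a search over all named genes and all members of the lists. How many such pairs that search would give by counting error or spread between cells was not measured. Each group is 1 pool, and none of these differences was tested.

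The log2 ratio of CD4-Cre over F/F went one way in members and the other in the cells without cytokine or Foxp3 for 8 genes. It was 1.69 in members and -2.20 in the other cells for Lyz2, and 1.14 and -1.56 for Apoe, both from few cells. It was -0.86 and 0.33 for Il12rb2, 1.30 and -0.25 for Gzma, and -0.47 and 0.24 for Nkg7, genes of cytotoxic and type 1 cells. It was 0.50 and -0.28 for Ifrd1, 0.29 and -0.28 for Hsp90aa1, and -0.21 and 0.26 for the activation marker Cd69. For Cd69 it was 0.19 in Foxp3 cells.

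The ratio of members over the cells without cytokine or Foxp3 differed in sign between the libraries for 4 genes. It was -1.16 in F/F and 0.39 in CD4-Cre for Gzma, -0.72 and 0.43 for Ppp6r3, 0.51 and -0.53 for R3hdm1, and -0.43 and 0.35 for Ifrd1. Over Foxp3 cells it was 0.53 in F/F and -0.55 in CD4-Cre for Crip1, and 0.53 and -0.58 for R3hdm1.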

How the results depend on the processing

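No paired analysis was possible because each genotype was 1 pooled library with no replicate number, and for the same reason no replicate could be left out. Alternatives to the processing kept 90 of the values that answer a comparison near their reported value and moved 38; of the other values 2255 stayed, 286 moved and 11 changed sign. The settings without macrophage-marker cells and without the largest cell per class were chosen after seeing the data.

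The share of members went from 0.794% and 1.13% to 0.532% and 0.734% when 2 Il10 UMIs were needed, to 2.72% and 2.98% among cells of at most 8000 UMIs, and to 0.434% and 0.816% after thinning to 1500 UMIs. It was 13.4% and 11.3% of CD4 T cells, and 0.886% in CD4-Cre with under 5% immunoglobulin. Counts of genes higher and lower than in Foxp3 cells (37 and 25) were 62 and 67 with 2 Il10 UMIs needed, 17 and 8 at most 8000 UMIs, 18 and 129 without the 5 highest cells per gene, 85 and 75 with a minimum of 30 UMIs, 5 and 4 at 2-fold, and 16 and 8 between 1500 and 6000 UMIs. The lower count was 51 with under 5% immunoglobulin, 44 without macrophage-marker cells and 44 without the largest cell. Against the cells without cytokine or Foxp3 (173 and 184) they were 101 and 573 without the 5 highest cells, 293 and 301 with 30 UMIs, and 72 and 77 at 2-fold. For the library ratio (204 and 119) they were 122 higher at most 8000 UMIs, 400 higher without the 5 highest cells, 512 and 304 with 30 UMIs, and 48 and 13 at 2-fold. Of 16 lists, 8 had a median above that of all genes against Foxp3 cells, and 5 did at most 5% mitochondrial or at most 8000 UMIs.

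Signs changed for Ccl5 in the library ratio (0.88 with 2 Il10 UMIs) and for the innate-like list (-0.82 at most 8000 UMIs). Against Foxp3 cells they changed at most 8000 UMIs for Hist1h2ae in F/F (0.06) and Tyms in CD4-Cre (0.35), and between 1500 and 6000 UMIs for Lyz2 (-0.26), Apoe (-0.18), Ube2c (0.52) and Tmpo (0.00) in F/F and Tyms in CD4-Cre (0.14). Lyz2 was -0.05 in CD4-Cre without the 5 highest cells and -0.18 in F/F without macrophage-marker cells. The cause was not tested. Genes seen in few members, and Foxp3 itself, are limited by a depth of about 3350 to 3732.5 UMIs per member.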
